A study of Mus musculus with 10 samples.

Results

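The pentose phosphate pathway leaves glycolysis at glucose 6-phosphate, and its enzymes were compared between livers of mice that received a Phf2 adenovirus and livers of mice that received a GFP adenovirus. The 10 genes examined are the enzymes of the oxidative branch (G6pdx, H6pd, Pgls and Pgd), those of the non-oxidative branch (Rpe, Rpia, Tkt and Taldo1), and the synthetases that carry ribose 5-phosphate on towards nucleotides (Prps1 and Prps2). A gene was measured where a feature of the array was annotated with its symbol and no other, and 9 of the 10 enzymes were measured, each by 1 feature, among 19938 genes tested. No feature carried the symbol G6pdx alone, so glucose 6-phosphate dehydrogenase itself, the entry enzyme of the oxidative branch, was not analysed here. Compared to GFP livers, Phf2 livers had higher RNA levels of 4 of the 9 measured enzymes (Pgd, Rpia, Tkt and Taldo1) and a lower RNA level of 1 (H6pd). Pgls, Rpe, Prps1 and Prps2 did not pass the test. Over all genes tested, 5.43% were higher and 4.24% lower by the same test.

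The oxidative branch converts glucose 6-phosphate to ribulose 5-phosphate and reduces NADP+ to NADPH on the way, whereas the non-oxidative branch interconverts pentose phosphates with the fructose and triose phosphates of glycolysis without making NADPH. In liver, NADPH is spent on fatty acid and sterol synthesis and on keeping glutathione and thioredoxin reduced. PRPP, the product of the Prps synthetases, is the ribose donor for purine, pyrimidine and NAD synthesis.

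The Phf2 livers came from 5 male C57BL/6J mice injected through the tail vein with the Phf2 adenovirus at 8 weeks of age, and the 5 GFP livers from mice of the same sex, strain and age injected with an adenovirus for the fluorescent protein GFP. Both groups were killed in the fed state 3 weeks after injection. Phf2 is a histone demethylase, and the study asked what its overexpression does to liver metabolism. Each liver was hybridised to 1 Affymetrix Gene ST array, whose features summarise many short probes along a transcript. All 10 mice had received virus, so that no liver here was free of it, the sources used here name no promoter for the adenoviral transgenes, and the methods state that mice without overexpression were removed from the study. Values are log2 RMA levels, in which a difference of 1 is a doubling.

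Arrays resembled each other closely, with medians of 5.06 to 5.18 and correlations of 0.978 to 0.993 between arrays. Hepatocyte markers, with a median level above that of 99.7% of genes, identified all samples as liver. The feature of Phf2 itself read 6.31, 6.27, 6.58, 6.45 and 6.37 in Phf2 livers against 6.50, 6.54, 6.53, 6.32 and 6.34 in GFP livers. It was not higher in Phf2 livers (log2 fold change -0.05 ± 0.08 SE, limma adjusted p = 0.751), and the groups overlapped. No source read here says which part of the transcript this feature covers or whether it reads the viral transcript, so that overexpression could not be checked in these data. Of 7 T and NK cell markers 6 were higher in Phf2 livers (summed linear level 411 to 686 in Phf2 livers, 226 to 288 in GFP livers), as were 3 of 6 markers of proliferating cells (268 to 499 in Phf2 livers, 217 to 257 in GFP livers). For comparison, 5.43% of all genes tested were called higher and 4.24% lower. Of 7 hepatocyte markers 3 were lower (Apoa1, Tat and Cps1), and of 8 macrophage markers 2 were higher and 3 lower. Alas2 was the 1 of 3 erythroid markers called lower, and none of 3 B cell, 6 neutrophil, 7 stellate and endothelial or 3 adipocyte markers was called. Pancreatic acinar markers varied widely within both groups, with array means of 6.40 to 10.99 in Phf2 livers and 6.73 to 12.50 in GFP livers, and none of 5 was called. An RMA value has no true zero, so absence of a marker cannot be read from it, and in RNA of whole liver more cells of a type and more RNA per cell cannot be told apart.

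Pgd, 6-phosphogluconate dehydrogenase, catalyses the last step of the oxidative branch and the second of its NADPH-producing reactions. It read 9.76, 9.90, 10.15, 10.17 and 9.80 in Phf2 livers against 8.23, 8.72, 8.32, 8.38 and 8.50 in GFP livers. The groups did not overlap, and a gap of 1.04 separated the lowest Phf2 array from the highest GFP array. The level averaged 9.95 ± 0.19 in Phf2 livers and 8.43 ± 0.19 in GFP livers (SD, n = 5 each), a log2 fold change of 1.52 ± 0.11 (SE), or 2.88-fold (limma, adjusted p = 5.70e-06). This change lay above that of 99.7% of the genes tested. An exact permutation test gave p = 0.00794, the smallest that 5 against 5 arrays allow.

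Of all genes tested, 9.67% passed an adjusted p of 0.05 in limma (5.43% higher and 4.24% lower in Phf2 livers), and 9.08% had groups that did not overlap (4.71% with every Phf2 array above every GFP array, 4.36% with every Phf2 array below). Among the 9 enzymes 4 were called higher, each without overlap, and 1 was called lower, with overlap. Their median log2 fold change was 0.27 and their mean 0.37, against a median of -0.01 over all genes.

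RefSeq gives 2 transcript starts for Pgd on the minus strand of chromosome 4 in build GRCm38.p6, and the sequence from 250 bases before to 50 bases after each is printed because Pgd changed most among the enzymes. Capitals mark 4 short motifs on either strand, namely the antioxidant response core TGACNNNGC, an E-box of the form CACGTG, the CCAAT box CCAAT and the GC box GGGCGG. The upstream start has the window chr4:149166656-149166955 and the downstream start chr4:149166033-149166332.
Pgd upstream start: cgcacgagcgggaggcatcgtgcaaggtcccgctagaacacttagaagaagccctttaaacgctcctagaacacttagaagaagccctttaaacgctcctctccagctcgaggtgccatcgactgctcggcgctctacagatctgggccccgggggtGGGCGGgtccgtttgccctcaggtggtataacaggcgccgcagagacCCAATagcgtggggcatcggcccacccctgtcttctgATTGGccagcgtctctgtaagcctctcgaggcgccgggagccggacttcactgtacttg
Pgd downstream start: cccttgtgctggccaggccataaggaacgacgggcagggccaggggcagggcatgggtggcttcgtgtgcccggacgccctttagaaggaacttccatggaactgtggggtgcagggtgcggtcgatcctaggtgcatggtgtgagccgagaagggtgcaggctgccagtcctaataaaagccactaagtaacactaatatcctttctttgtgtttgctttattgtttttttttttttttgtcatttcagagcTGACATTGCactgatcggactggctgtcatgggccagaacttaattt
The upstream window held 2 CCAAT boxes, at -46 and at -9 from the start, and 1 GC box at -93. The downstream window held 1 match to the antioxidant response core, from 4 to 12 bases after the start and so inside the transcript. Matches are descriptions of the letters in these windows and not binding sites.

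H6pd, the hexose 6-phosphate dehydrogenase of the endoplasmic reticulum lumen, carries out the dehydrogenase and lactonase steps of the oxidative branch in that compartment. Levels were 7.02, 7.07, 7.26, 7.14 and 6.99 in Phf2 livers and 7.26, 7.66, 7.42, 7.41 and 7.44 in GFP livers. Only Phf2 replicate 3 reached the lowest GFP array, by less than 0.01, and all other Phf2 arrays lay below the GFP arrays. H6pd averaged 7.10 ± 0.11 in Phf2 livers and 7.44 ± 0.14 in GFP livers (SD, n = 5 each), and its log2 fold change of -0.34 ± 0.08 (SE), or 0.789-fold, passed limma (adjusted p = 0.0181, exact permutation p = 0.0159). Hsd11b1, the reductase that regenerates glucocorticoid in the same lumen with NADPH supplied by H6pd, read 9.82, 9.73, 9.72, 9.72 and 10.05 in Phf2 livers against 10.36, 10.23, 10.42, 10.28 and 10.31 in GFP livers. It was lower in every Phf2 array than in any GFP array (log2 fold change -0.52 ± 0.07 SE, limma adjusted p = 0.000963).

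Pgls, the cytosolic lactonase between G6pdx and Pgd, read 7.11, 7.28, 7.34, 7.38 and 7.28 in Phf2 livers and 7.53, 7.36, 7.22, 7.73 and 7.58 in GFP livers. The groups overlapped, and the difference of -0.20 (95% interval -0.41 to -0.0011 before adjustment) did not pass (limma adjusted p = 0.223, exact permutation p = 0.0873). The oxidative branch therefore gave 1 member higher, 1 lower and 1 not called.

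G6pd2, an intronless mouse paralog of G6pdx that is not among the 10 enzymes, read 4.98, 5.40, 5.36, 5.21 and 5.05 in Phf2 livers against 4.57, 4.86, 4.80, 4.76 and 4.56 in GFP livers. The groups did not overlap, and the log2 fold change was 0.49 ± 0.10 (SE, limma adjusted p = 0.00678). G6pd2 had a low mean level, above that of 40.3% of genes tested. It had no value once genes below the median level were removed. Its sequence is close to that of G6pdx, and whether its probes also read G6pdx RNA was not tested.

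**Figure D1:**
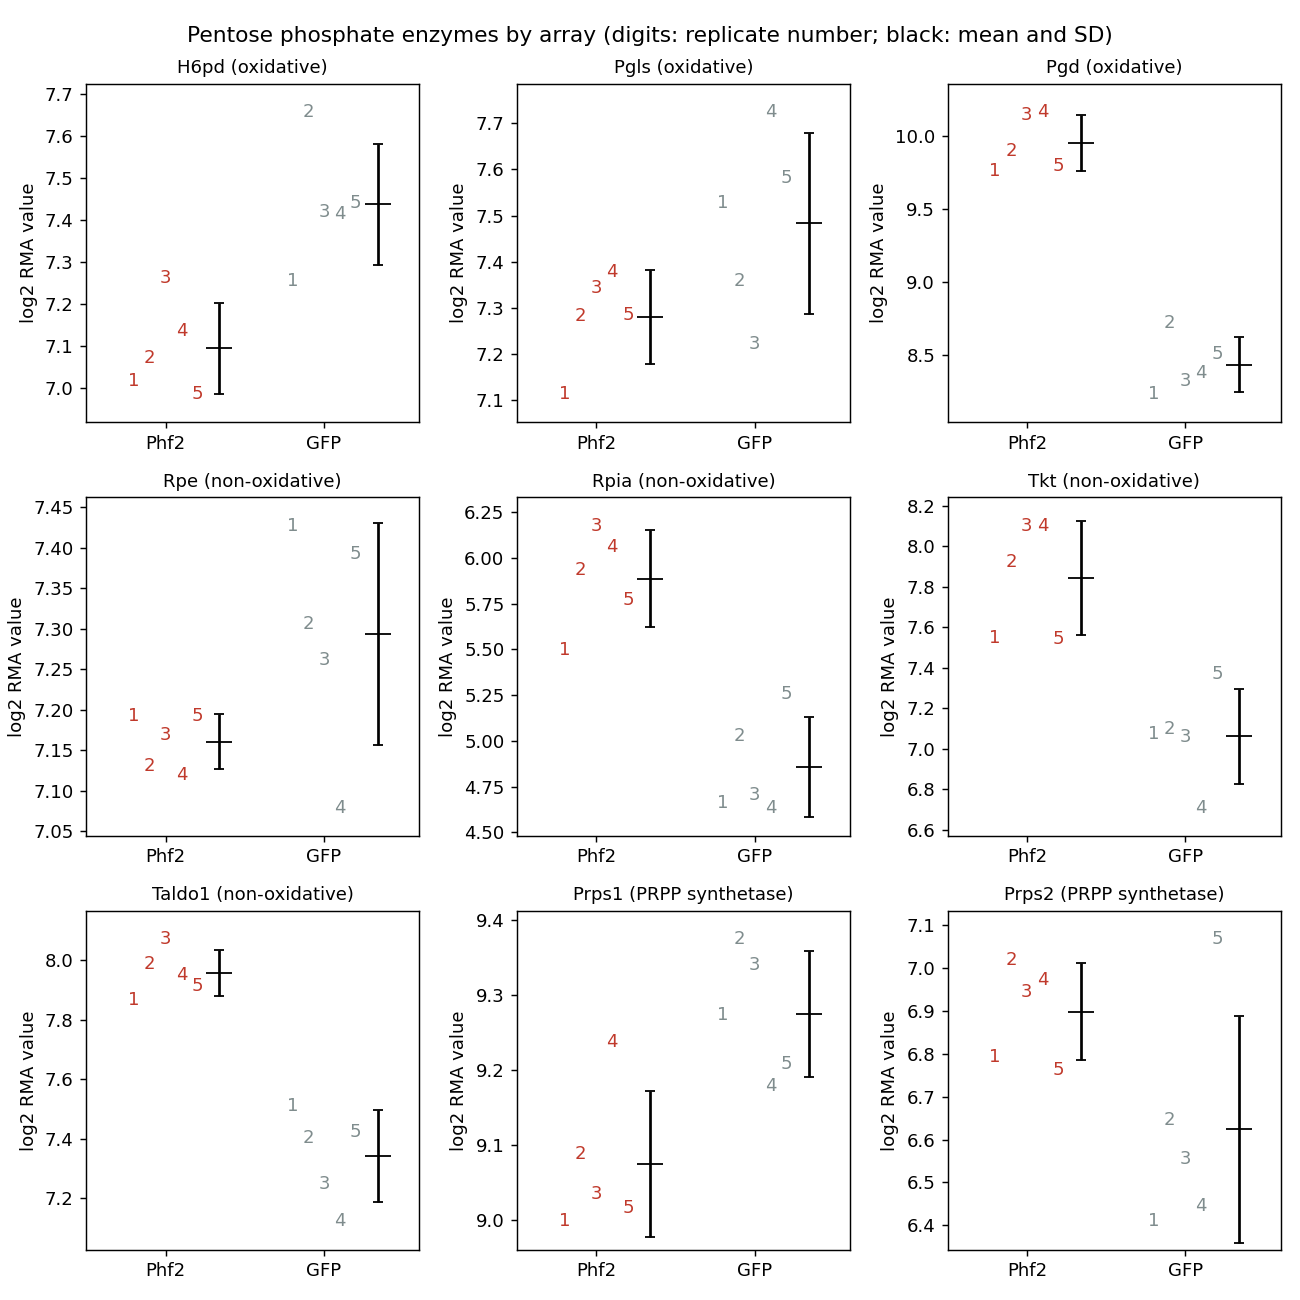
Log2 RMA level (y axis, a separate range in each panel) of the 9 measured enzymes in Phf2 and GFP livers. Each digit is 1 array and gives its replicate number, and black marks show the mean and SD of 5 arrays. The groups are apart for Pgd, Rpia, Tkt and Taldo1 and meet or overlap for the other 5.

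In the non-oxidative branch 3 of 4 members were higher in Phf2 livers and none was lower. Rpia, ribose 5-phosphate isomerase, turns ribulose 5-phosphate into the ribose 5-phosphate used for nucleotides. Its level was 5.49, 5.93, 6.18, 6.06 and 5.77 in Phf2 livers against 4.66, 5.03, 4.70, 4.63 and 5.25 in GFP livers. The groups were 0.24 apart, with GFP replicate 5 and Phf2 replicate 1 nearest to each other. Rpia averaged 5.89 ± 0.27 in Phf2 livers and 4.86 ± 0.27 in GFP livers (SD, n = 5 each), a log2 fold change of 1.03 ± 0.15 (SE), or 2.04-fold (limma, adjusted p = 0.000833).

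Tkt, transketolase, moves carbon units between sugar phosphates with thiamine diphosphate as cofactor. It read 7.55, 7.92, 8.10, 8.10 and 7.54 in Phf2 livers against 7.07, 7.10, 7.05, 6.71 and 7.37 in GFP livers. Phf2 replicates 1 and 5 lay below the other 3 Phf2 arrays and 0.18 or more above GFP replicate 5, the highest GFP array. Tkt averaged 7.84 ± 0.28 in Phf2 livers and 7.06 ± 0.23 in GFP livers (SD, n = 5 each), a log2 fold change of 0.78 ± 0.14 (SE), or 1.72-fold (limma, adjusted p = 0.00386).

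Taldo1, transaldolase, links the products of transketolase back to fructose 6-phosphate. Its level was 7.87, 7.99, 8.07, 7.95 and 7.91 in Phf2 livers against 7.51, 7.40, 7.25, 7.12 and 7.42 in GFP livers. A gap of 0.36 separated the groups, and the Phf2 arrays differed little among themselves. Taldo1 averaged 7.96 ± 0.08 in Phf2 livers and 7.34 ± 0.16 in GFP livers (SD, n = 5 each), a log2 fold change of 0.62 ± 0.08 (SE), or 1.53-fold (limma, adjusted p = 0.000412). For Rpia, Tkt and Taldo1 alike the exact permutation p was 0.00794, the smallest the design allows.

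Rpe, ribulose 5-phosphate epimerase, makes the xylulose 5-phosphate that transketolase uses as donor, and it did not move with the other members of the branch. It read 7.19, 7.13, 7.17, 7.12 and 7.19 in Phf2 livers and 7.43, 7.31, 7.26, 7.08 and 7.39 in GFP livers. Of the GFP arrays, 4 lay above all Phf2 arrays and GFP replicate 4 lay below them all. The difference of -0.13 (95% interval -0.28 to 0.02) did not pass (limma adjusted p = 0.301, exact permutation p = 0.0714).

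The windows of the members of this branch that were higher in Phf2 livers are printed to show what the promoters hold in common, with the same motifs in capitals. They are Rpia at chr6:70792126-70792425 on the minus strand, Tkt at chr14:30548881-30549180 on the plus strand and Taldo1 at chr7:141391910-141392209 on the plus strand, all from RefSeq in GRCm38.p6.
Rpia: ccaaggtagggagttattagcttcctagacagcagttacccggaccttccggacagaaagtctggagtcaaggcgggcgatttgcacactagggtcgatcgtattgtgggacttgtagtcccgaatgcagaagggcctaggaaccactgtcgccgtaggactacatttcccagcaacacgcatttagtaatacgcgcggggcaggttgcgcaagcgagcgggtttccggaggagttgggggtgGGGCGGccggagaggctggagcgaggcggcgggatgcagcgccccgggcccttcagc
Tkt: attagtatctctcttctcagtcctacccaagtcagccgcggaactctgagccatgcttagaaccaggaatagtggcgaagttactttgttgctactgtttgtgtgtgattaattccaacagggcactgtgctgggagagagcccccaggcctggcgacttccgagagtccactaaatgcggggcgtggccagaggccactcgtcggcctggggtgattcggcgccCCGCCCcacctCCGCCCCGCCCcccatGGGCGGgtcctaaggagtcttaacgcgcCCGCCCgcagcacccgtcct
Taldo1: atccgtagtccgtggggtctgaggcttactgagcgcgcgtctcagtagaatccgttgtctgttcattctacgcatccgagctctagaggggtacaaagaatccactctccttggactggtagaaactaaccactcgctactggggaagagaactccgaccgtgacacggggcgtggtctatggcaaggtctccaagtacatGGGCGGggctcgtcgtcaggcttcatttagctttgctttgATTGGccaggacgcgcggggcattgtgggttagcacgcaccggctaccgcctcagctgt
All of these held the GC box, once in Rpia (at -7), 5 times in Tkt, where the matches at -14 and -9 share a base, and once in Taldo1 (at -49). Taldo1 also held a CCAAT box at -9. RefSeq gave a promoter window for all 10 enzymes. The GC box was in 8 of them (all but H6pd and Prps2), against 52.9% of tested genes with a window (35.7% of 32851 windows of this length). The CCAAT box was in 5 enzymes, against 41.7% of tested genes (37.4% of windows). The antioxidant response core was in 2 enzymes, G6pdx and the downstream start of Pgd, against 15.2% of tested genes (12.4% of windows). In Pgd this match lay inside the transcript, and the upstream window had none. The E-box CACGTG, found in 9.50% of tested genes (7.15% of windows), was in none of the enzymes' windows. The GC content of the windows was 39.3% for H6pd, the member called lower, and 51.3% to 61.0% for those called higher. The members not called had 67.3% (Pgls), 60.3% (Rpe), 51.3% (Prps1) and 61.0% (Prps2). H6pd thus lay below, and Pgls above, the range of those called higher. The median over all windows was 52.7%.

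Prps1 and Prps2 are the isoforms of PRPP synthetase. Prps1 read 8.998, 9.09, 9.03, 9.24 and 9.02 in Phf2 livers and 9.27, 9.37, 9.34, 9.18 and 9.21 in GFP livers. Phf2 replicate 4 was the one Phf2 array above the lowest GFP array. The difference of -0.20 ± 0.07 (SE) did not pass (limma adjusted p = 0.0852, exact permutation p = 0.0238), and without Phf2 replicate 4 it was -0.24 and passed (adjusted p = 0.0492).

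Prps2 read 6.79, 7.02, 6.94, 6.97 and 6.76 in Phf2 livers and 6.41, 6.65, 6.55, 6.44 and 7.07 in GFP livers. All Phf2 arrays lay above 4 of the GFP arrays, and GFP replicate 5 lay above all Phf2 arrays. The difference of 0.27 ± 0.11 (SE) did not pass (limma adjusted p = 0.174, exact permutation p = 0.0714), and without GFP replicate 5 it was 0.39 and passed (adjusted p = 0.0116). The estimates for the isoforms had opposite signs.

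**Figure D2:**
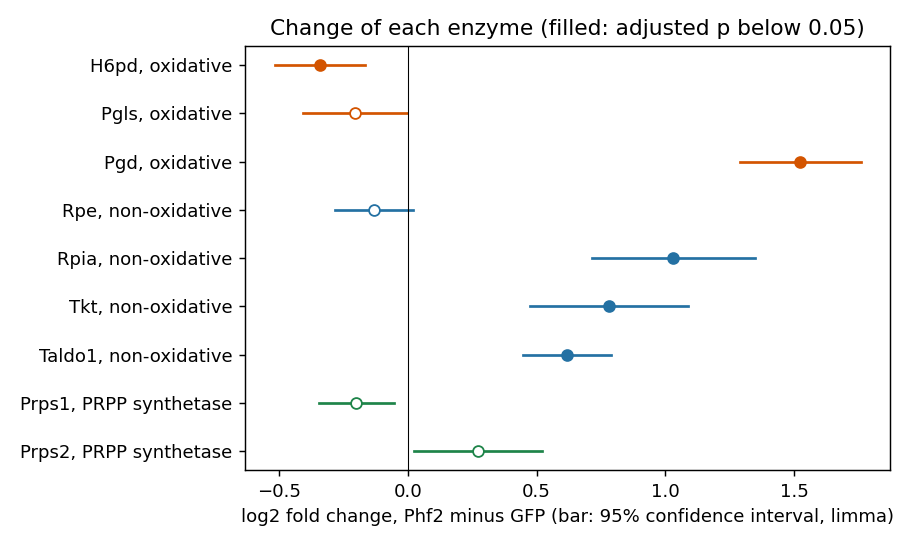
Change on the log2 scale, Phf2 minus GFP on the x axis, for each measured enzyme with its 95% confidence interval from limma. Orange is the oxidative branch, blue the non-oxidative branch and green the PRPP synthetases, and filled points passed limma. The changes run from -0.34 for H6pd to 1.52 for Pgd, both in the oxidative branch.

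To compare the branches, each gene was centred on its own mean over the 10 arrays and the centred values were averaged by array. The oxidative mean, over the 3 measured members, was 0.02, 0.14, 0.30, 0.28 and 0.08 in Phf2 livers against -0.28, -0.04, -0.29, -0.11 and -0.10 in GFP livers, a difference of 0.33. The non-oxidative mean over 4 members was 0.10, 0.32, 0.45, 0.38 and 0.18 in Phf2 livers against -0.26, -0.22, -0.36, -0.54 and -0.07 in GFP livers, a difference of 0.57. The PRPP synthetases differed by 0.04. Within each array the oxidative mean minus the non-oxidative mean was -0.12 ± 0.04 in Phf2 livers and 0.12 ± 0.19 in GFP livers (SD, n = 5 each), a difference of -0.25. The groups did not overlap in this measure, with -0.18 to -0.08 in Phf2 livers and -0.04 to 0.43 in GFP livers, of which GFP replicate 4 was the highest.

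The sign of that branch difference rested on which enzymes stood for the oxidative branch. Without H6pd, whose product stays in the endoplasmic reticulum, it was 0.09, and with Pgd alone it was 0.95, both computed after the data were seen. The median change was -0.20 in the oxidative branch and 0.70 in the non-oxidative branch, since Pgd was the one oxidative member above zero. These branch values are descriptions and carry no test.

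**Figure D3:**
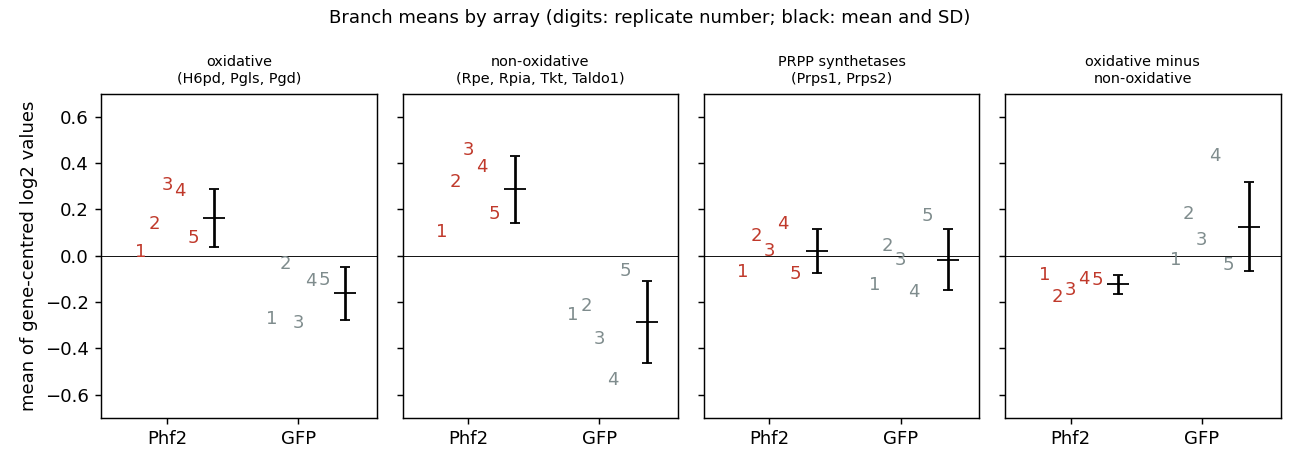
Mean of gene-centred log2 values (y axis) of the oxidative branch, the non-oxidative branch and the PRPP synthetases, and the oxidative minus the non-oxidative mean, by array. Digits are replicate numbers and black marks show the mean and SD of 5 arrays. Phf2 arrays lie above GFP arrays in the oxidative and the non-oxidative panel, and below them in the difference, by 0.33, 0.57 and -0.25 on average.

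Among the Phf2 livers, replicates 1 and 5 were the 2 lowest Phf2 arrays for 7 of the 9 enzymes (all but Pgls and Rpe), including the 4 called higher. This was so for 47.3% of the 1083 genes called higher and for 15.4% of all genes tested. Of the 7 enzymes, H6pd and Prps1 had estimates below zero, so that replicates 1 and 5 lay furthest from their GFP means. For the 4 called higher and for Prps2, these replicates instead lay nearest to the GFP mean. The mean of the T and NK cell markers was 5.78, 5.86, 6.34, 6.49 and 5.76 in Phf2 livers, against 4.98 to 5.29 in GFP livers. The mean of the proliferation markers was 5.43, 6.19, 6.25, 6.18 and 5.43 in Phf2 livers, against 5.12 to 5.37 in GFP livers. Both were thus lowest in Phf2 replicates 1 and 5, and hepatocyte markers were highest in them (11.83, 11.67, 11.50, 11.48 and 11.84 in Phf2 livers, against 11.88 to 11.98 in GFP livers). The part of these cells in the enzyme levels was not tested. In Phf2 replicates 1 and 5, Pgd, Rpia, Tkt and Taldo1 were above every GFP array, and so were the means of the T and NK cell markers and of the proliferation markers.

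**Figure D4:**
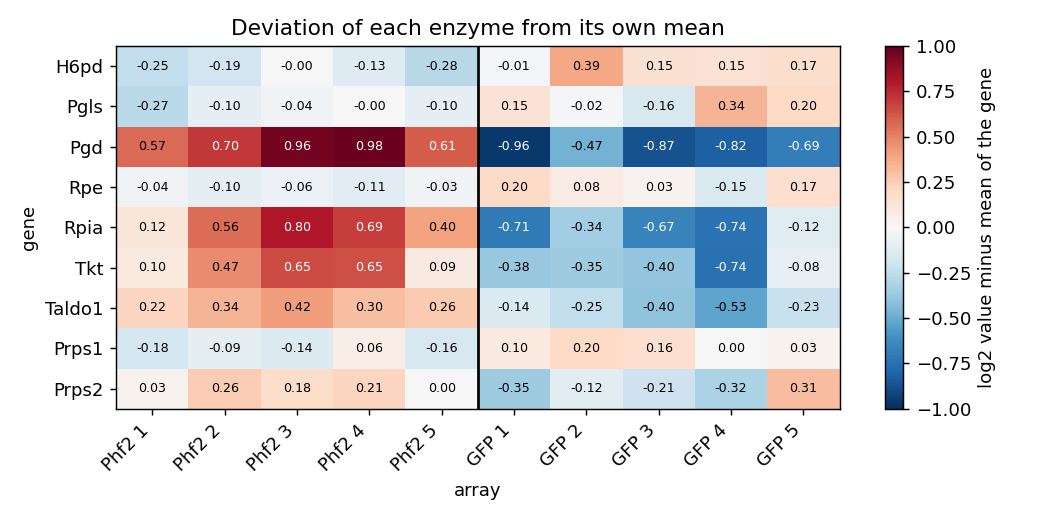
Log2 level of each measured enzyme minus its own mean over the 10 arrays (colour and printed number), with Phf2 arrays on the left and GFP arrays on the right of the line. Red is above and blue below the mean of the gene. Pgd, Rpia, Tkt and Taldo1 are red in all Phf2 arrays and blue in all GFP arrays, most faintly for Tkt in Phf2 replicate 5 (0.09) and GFP replicate 5 (-0.08).

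Genes around the pathway were described by lists. Beside the counts of every list, 5.43% of all genes tested were called higher and 4.24% lower. Of 14 measured side enzymes and paralogs, which handle xylulose, ribose, deoxyribose and gluconate or resemble a member, G6pd2 was the 1 called, and their median change was -0.03. The transketolase-like genes Tktl1 and Tktl2 gave -0.05 and -0.01, and the PRPP synthetase-associated proteins Prpsap1 and Prpsap2 gave 0.22 and -0.06, none of them past the test. Tigar, a phosphatase known to turn glucose carbon towards the pathway, gave 0.01.

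Genes that supply or remove glucose 6-phosphate gave 3 higher and none lower of 11 measured, with a median of 0.16. Hk2, a hexokinase that adult hepatocytes express weakly, averaged 6.58 ± 0.60 in Phf2 livers and 5.03 ± 0.21 in GFP livers (SD, n = 5 each), a log2 fold change of 1.54 ± 0.23 (SE, limma adjusted p = 0.00128). G6pc3, the widely expressed glucose 6-phosphatase, was higher by 0.42 (adjusted p = 0.00614) and Ugp2, which makes UDP-glucose for glycogen, by 0.30 (adjusted p = 0.0210, and up to 0.0604 without Phf2 replicate 3, Phf2 replicate 4 or GFP replicate 1). The hepatic glucose 6-phosphatase G6pc gave -0.02 and Slc37a4, the transporter that brings its substrate into the endoplasmic reticulum, 0.19 (adjusted p = 0.332). Of 11 measured steps shared with glycolysis 2 were higher, Aldoa by 0.87 (adjusted p = 0.00332) and Pfkl, the liver phosphofructokinase, by 0.38 (adjusted p = 0.00355). Aldoc, another aldolase isoform, was lower by 0.85 on the log2 scale (log2 fold change -0.85, adjusted p = 0.00813). The median of that list was 0.05.

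Of the 10 other NADPH sources and NAD kinases 2 were higher and 1 lower, with a median of -0.07. Me1, the cytosolic malic enzyme, read 11.89, 11.80, 11.93, 11.79 and 12.02 in Phf2 livers against 10.55, 11.07, 10.67, 10.56 and 10.95 in GFP livers. Its groups did not overlap, and its log2 fold change was 1.13 ± 0.10 (SE, limma adjusted p = 3.70e-05). Mthfd1, a cytosolic folate enzyme, was lower, with a log2 fold change of -0.70 ± 0.14 (SE, adjusted p = 0.00855), and Nadk, which makes NADP+ from NAD+, was higher by 0.26 (adjusted p = 0.0375), a call lost without any one of Phf2 replicates 3, 4 and 5 and GFP replicates 2, 3, 4 and 5 (adjusted p up to 0.110 over all alternatives). The NADP+-dependent isocitrate dehydrogenases Idh1 and Idh2 gave 0.02 and 0.12 and did not pass. Nnt, the mitochondrial transhydrogenase, gave -0.10 (adjusted p = 0.423).

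Among consumers of NADPH, 2 of 10 measured reductases were higher and Hsd11b1 was lower, with a median of 0.04. Nqo1, a quinone reductase, was higher by 1.32 ± 0.20 (SE, limma adjusted p = 0.00128) and Txnrd1, the cytosolic thioredoxin reductase, by 0.29 (adjusted p = 0.0273), while Gsr, glutathione reductase, gave 0.06 (adjusted p = 0.768). The mean level of Nqo1 lay above that of 47.7% of genes tested, and Nqo1 had no value once genes below the median level were removed. Txnrd1 lost its call without any one of Phf2 replicates 2, 3 and 4 and GFP replicates 1, 2 and 5 (adjusted p up to 0.0720 over all alternatives). In fatty acid and sterol synthesis 6 of 13 measured genes were higher and 1 lower, with a median of 0.22. The 6 were Elovl6 (2.31), Acaca (1.92), Fasn (1.31), Kdsr (0.77), Hsd17b12 (0.48) and Tecr (0.25), all of fatty acid or sphingolipid synthesis, of which Acaca and Elovl6 do not use NADPH themselves. Fasn, fatty acid synthase, averaged 9.49 ± 0.14 in Phf2 livers and 8.19 ± 0.29 in GFP livers (SD, n = 5 each, limma adjusted p = 5.56e-05). Tm7sf2, a sterol reductase, was lower (log2 fold change -0.57, adjusted p = 0.00503).

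In purine synthesis, whose entry enzyme Ppat takes PRPP, none of 10 measured genes was higher and 3 were lower, with a median of -0.18. Ppat read 8.66, 8.50, 8.60, 8.40 and 8.69 in Phf2 livers against 8.91, 9.02, 9.25, 9.14 and 9.24 in GFP livers. Its groups did not overlap, and the log2 fold change was -0.54 ± 0.08 (SE, limma adjusted p = 0.00144). Atic and Paics, which act later in the same pathway, gave -0.39 (adjusted p = 0.0254) and -0.28 (adjusted p = 0.0355). Atic lost its call without any one of Phf2 replicate 2 and GFP replicates 1, 2 and 5, and Paics without any one of Phf2 replicates 2, 3 and 4 and GFP replicates 2, 3, 4 and 5 (adjusted p up to 0.0724 and 0.0971 over all alternatives). In a list of pyrimidine synthesis with purine and NAD salvage 3 of 11 measured genes were higher and none lower, with 6 changes above and 5 below zero and a median of 0.05. The lists were not tested against each other, and of the genes called in them only Ppat and Umps use PRPP themselves. Each list fell to 1 called gene under the methods' t-test, with all features tested and with the replicate block. Ctps2 and Ctps, the CTP synthases, were higher by 0.57 (adjusted p = 0.00191) and 0.62 (adjusted p = 0.0455), and Umps, which joins orotate to PRPP, by 0.41 (adjusted p = 0.0436). Ctps lost its call without any one of Phf2 replicates 2, 3 and 4 and GFP replicates 1, 2, 3 and 4, and Umps without any one of Phf2 replicates 1, 3, 4 and 5 and GFP replicates 1, 3, 4 and 5 (adjusted p up to 0.138 and 0.131 over all alternatives).

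Of 14 measured regulators that are known to act on genes of the pathway or its substrate supply 3 were higher and none lower, with a median of 0.08. Mlxipl, which encodes the glucose-responsive factor ChREBP, averaged 9.93 ± 0.16 in Phf2 livers and 8.71 ± 0.12 in GFP livers (SD, n = 5 each), a log2 fold change of 1.22 ± 0.09 (SE, limma adjusted p = 6.10e-06). Nfe2l2, which encodes the antioxidant factor Nrf2, averaged 10.31 ± 0.09 in Phf2 livers and 9.33 ± 0.23 in GFP livers (SD, n = 5 each), a log2 fold change of 0.98 ± 0.10 (SE, adjusted p = 7.55e-05). Hif1a, a factor of the hypoxia response, was higher by 0.25 (adjusted p = 0.0338), a call lost without any one of Phf2 replicates 1, 3 and 4 and GFP replicates 1, 2 and 4 (adjusted p up to 0.0863 over all alternatives). Keap1, which holds Nrf2 back, and Srebf1, the insulin-responsive lipogenic factor, gave 0.06 (adjusted p = 0.719) and 0.09 (adjusted p = 0.701).

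**Figure D5:**
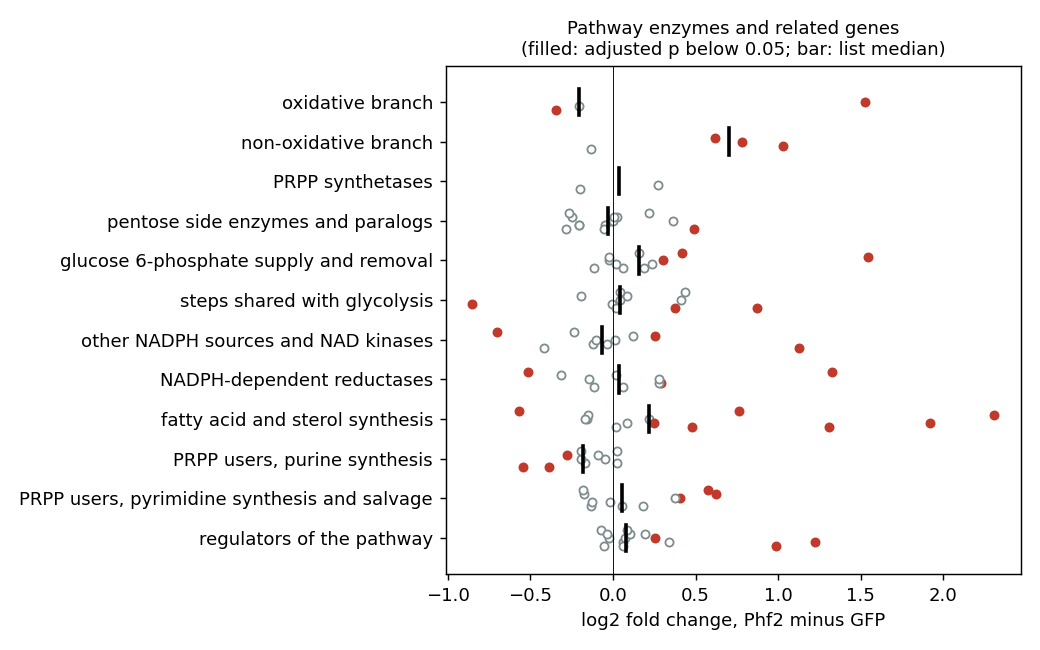
Log2 fold change (x axis, Phf2 minus GFP) for every measured gene of the branches and of the lists around them (rows). Each point is 1 gene, filled red where it passed limma, and bars are list medians. The non-oxidative branch has the highest median (0.70), and the lists around the pathway have medians of -0.18 to 0.22.

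For the 3 called enzymes with the smallest p, the genes of most similar pattern were those with the smallest mean absolute difference of gene-centred log2 values over the 10 arrays. They were Ppfibp1 (0.08) and S100a11 (0.11) for Pgd, Arsa (0.06) and Furin (0.07) for Taldo1, and Ccl3 (0.12) and Gpd2 (0.12) for Rpia. All 6 were called higher, with log2 fold changes of 0.56 for Furin to 1.52 for Ppfibp1. Likeness here includes the group difference itself.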

How the data were processed

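Liver RNA of 5 Phf2 and 5 GFP mice was profiled on 1 array each. Groups and replicate numbers come from the sample labels, which describe biological replicates. RMA normalization (Bioconductor) and Partek statistics were run by the authors, who deposited log2 values for 35556 features. A human array and an RNA kit that differs from the labels appear in the methods, whereas feature numbers match a mouse annotation. Tool versions and the genome build were not given in the sources used here.

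Gene names come from the platform annotation. Of the features, 1621 had more than 1 symbol and 12146 had no symbol, and neither kind was used. Of 21789 features with 1 symbol 21698 matched a gene of the GRCm38.p6 RefSeq table. Where several features shared a symbol (999 genes), the brightest on average stood for the gene. Phf2 and GFP arrays were compared without covariates by limma 3.58.1 (R 4.3.3; lmFit, eBayes). P-values were adjusted over 19938 genes by the Benjamini-Hochberg method at a threshold of 0.05, with a two-sided exact permutation test beside it for single values. Intervals are 95% and unadjusted. RMA equalizes arrays, so that a shift common to most genes cannot be seen. The 10 enzymes, the lists and the markers were chosen with earlier results of these data known, so that lists are given as counts and medians without tests. Named genes are the enzymes, from each list up to 3 called genes that rose most and 3 that fell most, the genes nearest in pattern to 3 enzymes, and Phf2. Genes named beyond this rule, such as Kdsr, Prpsap1 or Keap1, were chosen after their values were seen. The branch comparison used 3 oxidative enzymes, as G6pdx was not analysed here.

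The comparison was repeated with the methods' t-test, array weights, a robust prior with intensity trend, removal of dim features, quantile normalization, median centring, all features, the mean of a gene's features, a replicate block, other thresholds and leaving out each array. For the arrays the methods name an analysis of variance per gene with Tukey tests, and a t-test for other comparisons. The Benjamini-Hochberg adjustment of the t-test was added here, so its counts are not those of the authors. A covariate for pancreatic markers and other sets of oxidative enzymes were added after the data were seen. Precision is limited by the number of arrays, and the pipeline was tested on simulated data.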

Additional observations from a re-analysis of the deposited data

Results flagged for a closer look

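Of 92 groups of 5 values checked for a value far from the others (the enzymes, the other named genes and the branch means), 2 stood out, where chance gives about 1 in 20. Acaca, acetyl-CoA carboxylase, was highest in Phf2 replicate 4 at 10.8437, with the next Phf2 array at 10.6624. Ctps2, a CTP synthase, was lowest in GFP replicate 1 at 6.089, with the next GFP array at 6.3219. None of the 9 enzymes had such a value.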

How the results depend on the processing

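Of the 9 enzymes 5 were called, and Pgd, Rpia, Tkt, Taldo1 and H6pd kept their direction and their call in every alternative model or scaling and without each array in turn, except that Rpia has no value without dim features (4 enzymes called). Adjusted p-values ranged from 0.00773 to 0.0474 for H6pd, 4.60e-07 to 0.000905 for Pgd, 0.000419 to 0.0136 for Rpia, 0.00164 to 0.0315 for Tkt and 0.000114 to 0.00502 for Taldo1. At an adjusted p of 0.01, and at the study's limits (1.5-fold, p of 0.05 without adjustment, 706 of all genes), 4 enzymes were called, and 6 at an adjusted p of 0.1. The study's limits were applied here to limma p-values with 1 feature per gene, so 706 is not the count of the authors. Leaving out 1 array gave 5 to 6 called enzymes, with Prps1 gained without Phf2 replicate 4 and Prps2 without GFP replicate 5. The branch difference of -0.25 was between -0.29 and -0.17 without 1 array, 0.0866 without H6pd and 0.95 with Pgd alone. Over all genes 1929 were called, 1310 with the methods' t-test (with the adjustment added here) and 1347 when all features were tested. The split of 1083 higher and 846 lower became 1024 and 1066 after quantile normalization and 829 and 959 after median centring.

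Among other named genes, calls were lost in some of 20 alternatives for Ctps (13), Nadk (12), Umps (12), Paics (11), Hif1a (9), Txnrd1 (7), Atic (7), Ugp2 (3) and Aldoc (1). Aldoc lost its call with the methods' t-test. G6pd2, Nqo1 and Ccl3 had no value without dim features. The purine list fell to 1 called gene with the methods' t-test, all features, the replicate block and without Phf2 replicate 2, GFP replicate 2 or GFP replicate 5. The pyrimidine list fell to 1 with the same models, with median centring and without Phf2 replicate 3, Phf2 replicate 4, GFP replicate 1 or GFP replicate 4. Side enzymes called numbered 2 in 9 alternatives, including without Phf2 replicate 1 or GFP replicate 4, and 3 without Phf2 replicate 5. Calls of the other NADPH sources numbered 5 without dim features, with the pancreatic covariate and without Phf2 replicate 1. The causes were not tested. No pairing by replicate number showed in the deviations, where same-numbered arrays correlated at -0.29 to -0.04 and none correlated best with its own number. A processing step shared by number was not tested. With the replicate block 5 enzymes were called, and 1514 genes in all.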
